A study of Mus musculus with 2 samples.

Results

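The genes described are the matrix metalloproteinases (*Mmp*), their tissue inhibitors (*Timp*), and the *Adam* and *Adamts* proteases, read in cultured mouse brain pericytes (PCs). They were taken by symbol, as every gene whose name begins with Mmp, Timp, Adamts or Adam followed by a digit. This gave 78 of the 31053 genes counted, namely 22 *Mmp*, 4 *Timp*, 19 *Adamts* and 33 *Adam* genes. The cultures were wild-type C57BL/6N PCs from female mice aged 6 to 8 weeks, grown from the pooled brains of 6 mice, and sequenced as single cells in droplets at passage 5 (PC5) and at passage 20 (PC20). Each passage is represented by 1 library. By the study's methods a separate isolation was used for each passage, whereas the deposited design text describes a single isolation from 6 mice. Taking the methods as given, an effect of passage and one of isolation cannot be told apart. PCs were grown on collagen type I, at first in endothelial growth medium and later in pericyte medium. Neither passage has a replicate library, so the differences are given with no test between passages, and every interval covers counting error only.

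The files hold unique molecular identifiers (UMIs), each of which tags a captured RNA molecule near its 3′ end, so levels were not divided by transcript length. A level is given in CPM, the UMIs of a gene per 1000000 UMIs of the kept cells of a library, and the change as the log2 ratio, log2 of the PC5 level over the PC20 level, which is above 0 where PC5 was higher. Values in parentheses are 95% intervals. Of 10629 and 4884 barcodes, 9950 PC5 and 4749 PC20 cells had more than 1000 genes and under 20% mitochondrial UMIs, with medians of 21700 and 33424 UMIs. Shares of cells are therefore given after each cell was thinned to 10500 UMIs, which left 8847 PC5 and 4474 PC20 cells. Of all barcodes before this filter, 20 occurred in both libraries. Several defining pericyte markers were at or near 0 in both libraries. The summed level of 10 pericyte markers was 67.2 CPM in PC5 and 10.6 CPM in PC20, with *Pdgfrb* at 44.6 and 5.43 CPM, while *Abcc9* had 1 UMI in each library and *Higd1b* had 1 and 0. All 6 fibroblast markers were higher in PC5, with a summed level of 3614 CPM against 107 CPM, and 2 of 6 epithelial markers, *Krt8* and *Krt18*, brought that list to 0.233 CPM in PC5 and 1012 CPM in PC20. The microglia and macrophage list of 9 genes summed to 5.61 and 5.29 CPM, with *Cd48* and *Adgre1* at 0 UMIs in both libraries. The endothelial list of 6 summed to 199 and 74.1 CPM and the smooth muscle list of 6 to 303 and 66.7 CPM. These sums do not hold for each gene. Of 3 endothelial genes with a mean of at least 1 CPM, 2 had a log2 ratio above 1 and 1 below -1. Of 4 such smooth muscle genes, 1 had a log2 ratio above 1 and 3 lay between -1 and 1. Of 2 such microglia and macrophage genes, 1 had a log2 ratio above 1 and 1 below -1, although their list had close sums. The astrocyte list of 6 summed to 157 and 233 CPM. Of its 3 such genes, 1 had a log2 ratio above 1 and 2 lay between -1 and 1. Of all genes with that mean 20.3% were above 1 and 18.5% below -1. The part of the fibroblast, epithelial, endothelial, smooth muscle, astrocyte, and microglia and macrophage genes in the differences below was not tested.

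MMPs are zinc proteases that are made as inactive proenzymes and cleave collagens, laminins, fibronectin and other proteins outside the cell. TIMPs bind the active site of MMPs and block it, and TIMP3, which stays bound to the matrix, also inhibits several ADAM and ADAMTS enzymes. ADAMTS enzymes are secreted and cut proteoglycans such as versican or trim procollagens, while most ADAMs sit in the plasma membrane and release the outer parts of receptors, ligands and adhesion molecules. In the brain, proteases of these families act on the vascular basement membrane in which PCs are embedded, and they are known for opening the blood-brain barrier after injury.

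Inhibitors and proteases were both mostly higher in PC5. Of the 78 genes, 30 passed a mean level of at least 1 CPM over both libraries. Of these, 22 had a log2 ratio above 1, beside 20.3% of all 11761 genes that passed the same filter. Only *Adamts9* and *Mmp28* had a log2 ratio below -1, beside 18.5% of all such genes, and 6 lay between -1 and 1. The median log2 ratio of the 30 was 2.33, and that of all genes passing was 0.02. A gene high in a single library passes such a filter only through that library. Of the 30, 21 reached 1 CPM in both libraries, 7 in PC5 alone and 2 in PC20 alone, and among the 21 the count was 15 higher in PC5 and 0 higher in PC20 with a median log2 ratio of 2.01. In that stricter set 15.8% of all genes were higher in PC5 and 16.9% higher in PC20. The sum of each family fell from PC5 to PC20. *Timp* genes summed to 2901 and 352 CPM, *Mmp* genes to 307 and 102 CPM, *Adamts* genes to 288 and 110 CPM, and *Adam* genes to 650.0 and 198 CPM. The *Timp* family thus had the largest log2 ratio of the summed levels, 3.04 (3.03 to 3.06), against 1.59 (1.57 to 1.62) for *Mmp*, 1.38 (1.36 to 1.41) for *Adamts* and 1.71 (1.70 to 1.73) for *Adam* genes. The ratio of summed *Timp* to summed *Mmp* CPM was 9.44 in PC5 and 3.45 in PC20.

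**Figure D1:**
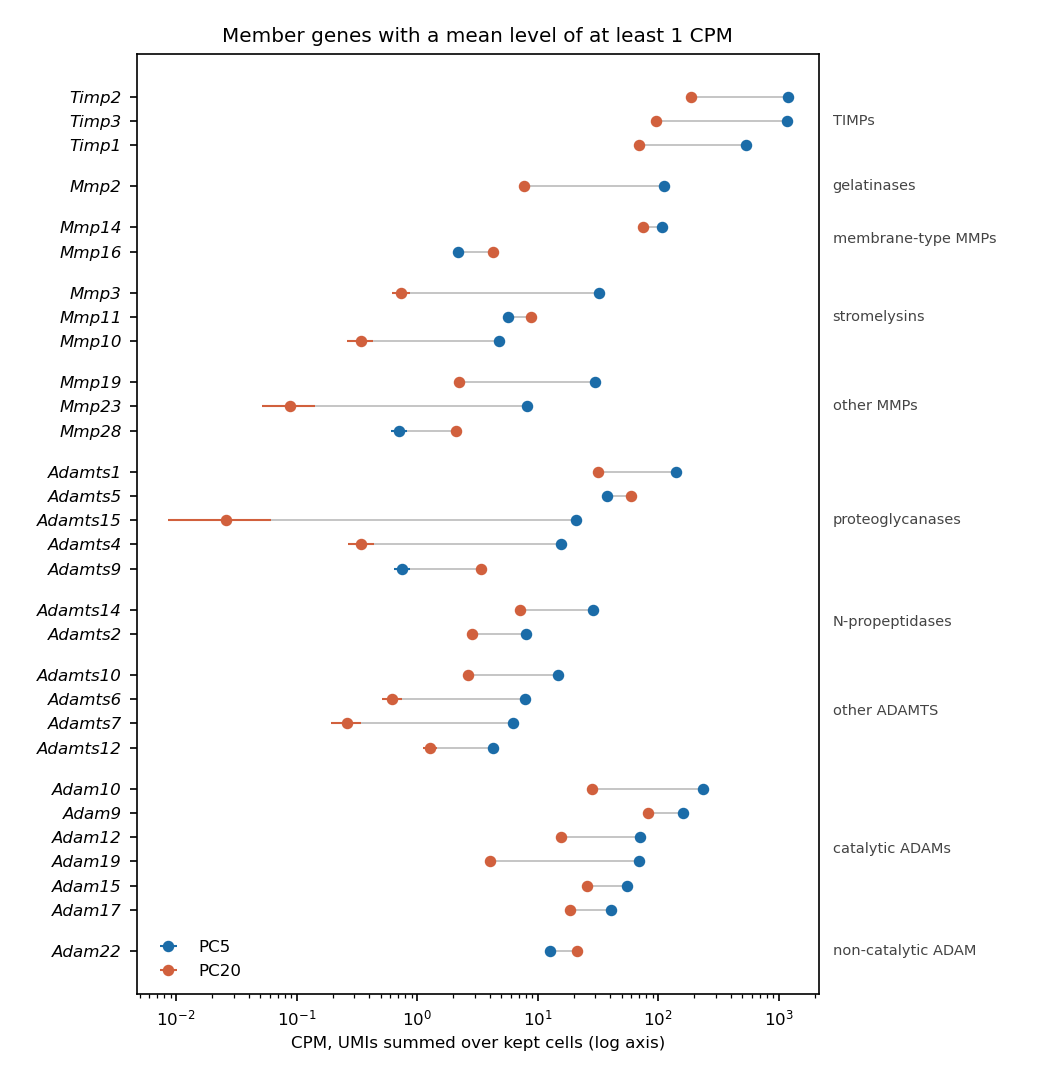
Level of the 30 genes with a mean of at least 1 CPM, on a log axis of CPM, with PC5 in blue and PC20 in orange, grouped by role; bars are exact 95% Poisson intervals and are mostly smaller than the points. PC5 lies to the right for most genes, and for *Mmp11*, *Mmp16*, *Mmp28*, *Adamts5*, *Adamts9* and *Adam22* PC20 does.

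**Figure D2:**
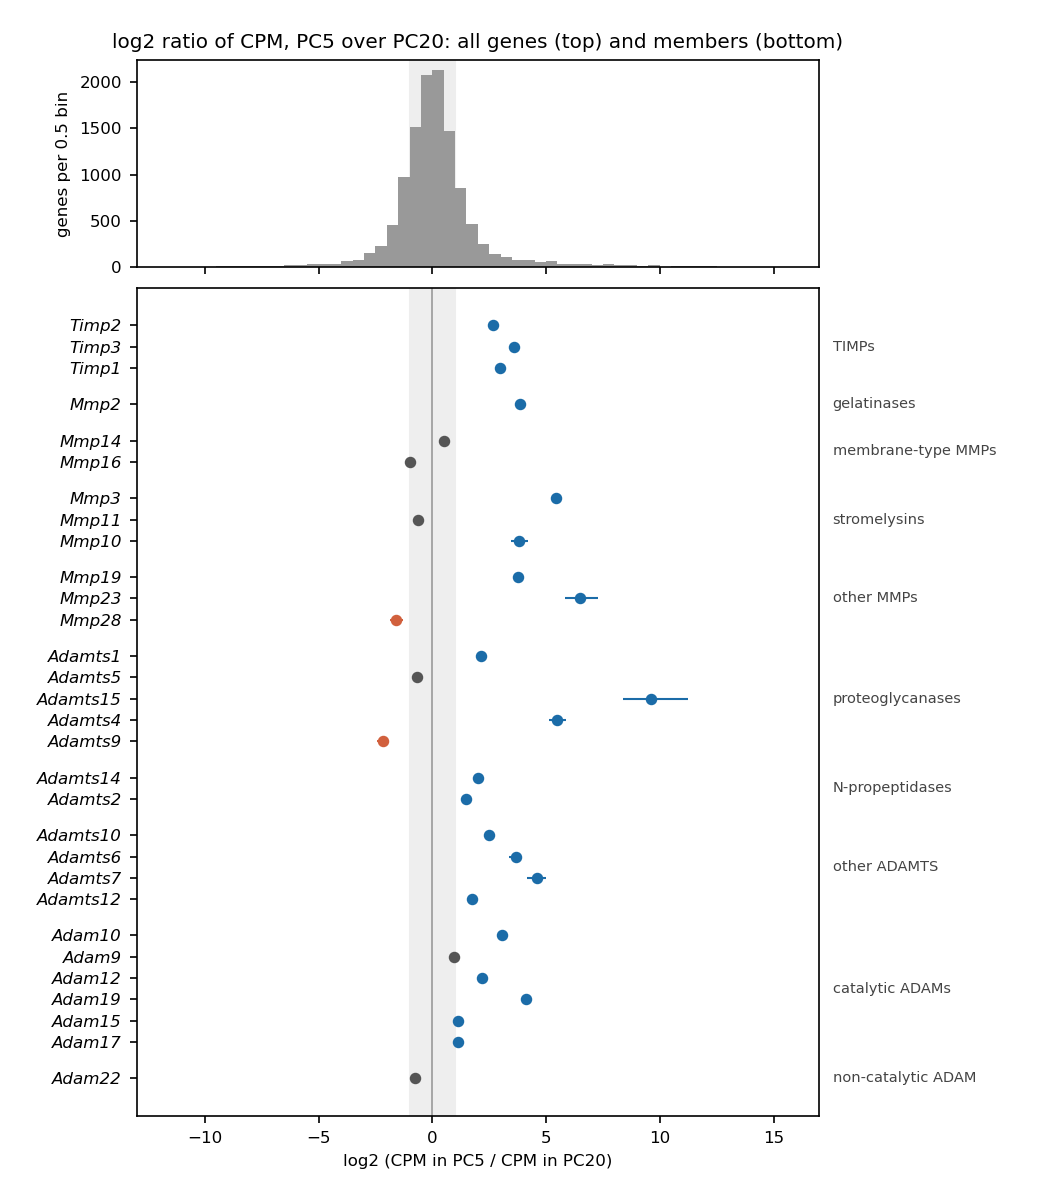
The upper panel counts all 11761 genes by log2 ratio of CPM in PC5 over PC20 in bins of 0.5, and the lower panel shows the 30 member genes with exact conditional binomial 95% intervals; grey marks -1 to 1. All genes centre near 0, while 22 members are to the right of the grey band and 2 to the left.

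The 3 highly expressed inhibitors were the most abundant of all 78 genes in PC5. *Timp2* (ENSMUSG00000017466), which besides blocking MMPs helps membrane-type MMP14 to activate pro-MMP2, was at 1192 CPM (1188 to 1197) in PC5 against 186 CPM (185 to 188) in PC20, giving a log2 ratio of 2.68 (2.66 to 2.69). *Timp3* (ENSMUSG00000020044) was at 1168 CPM (1163 to 1172) and 95.7 CPM (94.3 to 97.1), giving a log2 ratio of 3.61 (3.59 to 3.63). *Timp1* (ENSMUSG00000001131), a soluble inhibitor induced by cytokines, was at 541 CPM (538 to 544) and 69.5 CPM (68.3 to 70.7), giving a log2 ratio of 2.96 (2.93 to 2.99). PC20 held less of all 3, with the greatest fall for *Timp3*, 12.2-fold. *Timp2* was still detected in most PC20 cells, with a UMI in 80.02% of thinned cells against 99.9% in PC5. The shares for *Timp3* were 95.7% in PC5 and 48.2% in PC20, and for *Timp1* 92.8% and 48.3%. *Timp4*, the inhibitor best known from heart and fat, had 17 UMIs in PC5 and 0 in PC20.

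The median of *Timp* UMIs per cell was above that of *Mmp* UMIs in both libraries, and the families were not compared cell by cell. A PC5 cell thinned to 10500 UMIs held a median of 26 *Timp* UMIs, with 13 at the 10th and 55 at the 90th percentile, and a PC20 cell a median of 3, from 1 to 7. *Mmp* UMIs had a median of 3 in PC5 and 1 in PC20. No *Timp* UMI was seen in 0.0113% of PC5 and 6.06% of PC20 cells, and no *Mmp* UMI in 7.72% and 38.5%.

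**Figure D3:**
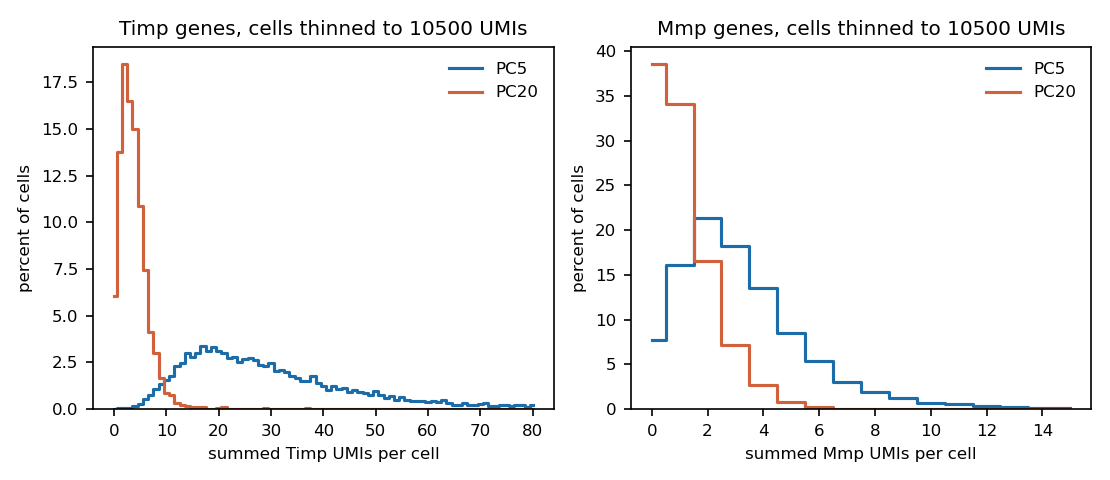
Percent of cells (vertical axis) by summed *Timp* UMIs (left) or summed *Mmp* UMIs (right) per cell, each cell thinned to 10500 UMIs, PC5 in blue and PC20 in orange. The *Timp* distributions have medians of 26 and 3 UMIs and overlap little, while the *Mmp* distributions, with medians of 3 and 1, overlap widely; 2.62% of PC5 cells for *Timp* and 0.916% for *Mmp* lie beyond the axis.

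The gelatinase *Mmp2* (ENSMUSG00000031740), which cleaves denatured collagen and the type IV collagen of basement membranes, was 14.5-fold lower in PC20. The PC5 library had 112 CPM (111 to 114) and the PC20 library 7.73 CPM (7.34 to 8.13), giving a log2 ratio of 3.86 (3.78 to 3.94), and a UMI was found in 66.3% and 7.80% of thinned cells. The other gelatinase, *Mmp9*, had 7 UMIs in PC5 and 0 in PC20. *Mmp14* (ENSMUSG00000000957) encodes MT1-MMP, the membrane-bound activator of pro-MMP2 and itself a collagenase. It was at 108 CPM (107 to 110.0) and 74.9 CPM (73.7 to 76.1), giving a log2 ratio of 0.53 (0.50 to 0.56), well below that of its substrate *Mmp2*. *Mmp14* and *Mmp2* made up 35.3% and 36.5% of the summed *Mmp* level in PC5, and 73.6% and 7.59% in PC20. *Mmp16*, another membrane-type MMP, was at 2.18 and 4.26 CPM, giving a log2 ratio of -0.96 (-1.13 to -0.80). This interval reaches past -1. Of the other membrane-type genes none passed the filter. *Mmp15* came closest at 1.40 and 0.199 CPM.

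The stromelysins cleave proteoglycans, laminin and fibronectin and activate other pro-MMPs. *Mmp3* (ENSMUSG00000043613), stromelysin-1, was at 32.5 CPM (31.7 to 33.2) in PC5 against 0.738 CPM (0.621 to 0.870) in PC20, giving a log2 ratio of 5.46 (5.22 to 5.71). *Mmp10*, stromelysin-2, was at 4.78 and 0.340 CPM, giving a log2 ratio of 3.81 (3.45 to 4.20). *Mmp11*, an unusual member that is activated inside the cell by furin, went the other way at 5.68 and 8.85 CPM, giving a log2 ratio of -0.64 (-0.75 to -0.53). The matrilysin *Mmp7* had 0 UMIs in both libraries. The 3 genes listed as classical collagenases that were counted were near the limit of detection. They had 14 and 6 UMIs for *Mmp13*, 49 and 0 for *Mmp8*, and 9 and 0 for *Mmp1b*. *Mmp1a*, also listed as a collagenase, was not among the genes counted, so its level is unknown. Their summed level was 0.323 CPM in PC5 and 0.0314 CPM in PC20.

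Among the genes counted, *Mmp3* and *Mmp10* follow each other in a run of 9 *Mmp* genes on chromosome 9 (GRCm38, 7272514 to 7699585). The order of the counted genes is *Mmp13*, *Mmp12*, *Mmp1b*, *Mmp3*, *Mmp10*, *Mmp8*, *Mmp27*, *Mmp20* and *Mmp7*. It leaves out *Mmp1a*, which was not counted. Only *Mmp3* and *Mmp10* passed the filter. *Mmp27* had 120 and 0 UMIs, *Mmp12*, the macrophage elastase, 32 and 1, and *Mmp20*, an enamel protease, 1 and 0. *Mmp12* and *Mmp1b* overlap on opposite strands. The nearest genes outside the run did not share the log2 ratio of *Mmp3*, with *Dcun1d5* at 0.55 on the near side and *Tmem123* at 1.37 on the far side.

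Stromelysin and collagenase promoters are textbook targets of AP-1, the Fos and Jun dimer, whose usual site is TGACTCA or TGAGTCA. The search used TGANTCA, which allows any base at N and so is wider than that site. The 250 bases before the start are shown for the 2 members of the run that were measured well and for 2 that were at or near 0, from RefSeq on GRCm38.p6, all on the plus strand, with TGANTCA in capitals. They are chr9:7445572-7445821 for *Mmp3*, chr9:7502092-7502341 for *Mmp10*, chr9:7272264-7272513 for *Mmp13* and chr9:7691840-7692089 for *Mmp7*.
Mmp3: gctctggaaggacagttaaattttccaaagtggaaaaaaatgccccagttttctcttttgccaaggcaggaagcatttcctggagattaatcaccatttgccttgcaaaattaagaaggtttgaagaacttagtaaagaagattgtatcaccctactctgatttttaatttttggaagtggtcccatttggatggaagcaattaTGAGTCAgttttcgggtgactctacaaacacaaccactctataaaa
Mmp10: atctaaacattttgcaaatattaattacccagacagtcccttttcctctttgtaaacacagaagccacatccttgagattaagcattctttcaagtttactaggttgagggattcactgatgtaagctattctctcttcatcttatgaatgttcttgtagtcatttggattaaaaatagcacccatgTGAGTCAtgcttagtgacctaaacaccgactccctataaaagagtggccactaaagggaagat
Mmp13: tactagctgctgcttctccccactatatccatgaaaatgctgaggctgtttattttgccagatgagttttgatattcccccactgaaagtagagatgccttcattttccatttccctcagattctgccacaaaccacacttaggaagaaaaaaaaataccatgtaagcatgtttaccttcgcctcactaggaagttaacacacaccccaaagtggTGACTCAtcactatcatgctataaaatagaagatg
Mmp7: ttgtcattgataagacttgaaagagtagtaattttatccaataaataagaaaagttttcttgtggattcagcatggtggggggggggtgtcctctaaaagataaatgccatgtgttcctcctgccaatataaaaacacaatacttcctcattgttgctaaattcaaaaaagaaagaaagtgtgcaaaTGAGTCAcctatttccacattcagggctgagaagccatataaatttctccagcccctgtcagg
The match begins 46 bases before the start in *Mmp3*, 63 in *Mmp10*, 35 in *Mmp13* and 63 in *Mmp7*. All 9 genes of the run had a RefSeq window of 250 bases before to 50 after the start. TGANTCA, searched on both strands, was in 7 of them, all but *Mmp8* and *Mmp27*, beside 8.97% of the 27025 genes with such a window. In *Mmp20* the match before the start was TGAATCA, outside the usual site. TATAAA was in 8 of the 9, the same 7 and *Mmp8*, beside 15.7% of genes, and in none did the motifs share a base. RefSeq windows matched 48 of the 78 genes, and 12 held TGANTCA. Of the 30 genes that passed the filter 19 had a window, and *Mmp3*, *Mmp10* and *Adam19* were the 3 of these 19 with a match. The letters were therefore shared by members of the run at 32.5 CPM and at 0 UMIs, and a match is a description of the sequence and not a bound site.

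The remaining MMPs split. *Mmp19* (ENSMUSG00000025355), which cleaves basement membrane proteins, was at 29.9 CPM (29.2 to 30.7) in PC5 against 2.21 CPM (2.01 to 2.43) in PC20, giving a log2 ratio of 3.76 (3.62 to 3.90). *Mmp23*, a membrane-anchored form without the usual hemopexin domain, was at 8.10 CPM and 0.0889 CPM from 1806 and 17 UMIs, giving a log2 ratio of 6.51 (5.83 to 7.29). *Mmp28*, known as epilysin, was at 0.713 and 2.12 CPM, giving a log2 ratio of -1.58 (-1.85 to -1.31), and was the only MMP with a log2 ratio below -1.

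Among the ADAMTS proteoglycanases, the enzymes that cut versican and aggrecan, the balance between members differed between PC5 and PC20. *Adamts1* (ENSMUSG00000022893), which also has antiangiogenic thrombospondin repeats, was at 142 CPM (140 to 144) in PC5 against 32.0 CPM (31.2 to 32.8) in PC20, giving a log2 ratio of 2.15 (2.11 to 2.19). *Adamts5* (ENSMUSG00000022894), a major aggrecanase of mouse cartilage, was at 37.5 CPM (36.7 to 38.3) and 59.2 CPM (58.1 to 60.3), giving a log2 ratio of -0.66 (-0.70 to -0.62). These genes are neighbours on chromosome 16, 53059 bases apart and transcribed in the same direction, and *Adamts5* over *Adamts1* was 0.264 in PC5 and 1.85 in PC20. *Adamts4*, another aggrecanase, was at 15.6 and 0.345 CPM, giving a log2 ratio of 5.50 (5.15 to 5.87). *Adamts9*, which cleaves versican and is the mammalian relative of worm Gon-1, was at 0.753 CPM and 3.40 CPM, and its log2 ratio of -2.17 (-2.43 to -1.93) was the lowest of the 30.

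*Adamts15* (ENSMUSG00000033453), a versican-cleaving enzyme, had the highest log2 ratio of the 30. PC5 held 4622 UMIs and PC20 held 5, or 20.7 CPM (20.1 to 21.3) and 0.0262 CPM (0.00849 to 0.0611), giving a log2 ratio of 9.63 (8.41 to 11.25). A UMI was found in 15.8% of thinned PC5 cells and in 0 of 4474 thinned PC20 cells, where a count of 0 allows up to 0.0671% of cells with a UMI at 10500 UMIs per cell. Before thinning the shares were 24.8% in PC5 and 0.0842% in PC20, the latter from 4 of 4749 cells. The libraries hold no cells known to lack these genes, so the share that free RNA gives was not measured. The adjacent *Adamts8* on chromosome 9, 20109 bases away on the opposite strand, had 184 UMIs in PC5 and 0 in PC20. Against a floor of 3 UMIs for the PC20 library it was at least 52.6-fold higher in PC5. The nearest other genes that passed the filter had smaller ratios, with *Zbtb44* at 0.62 and *Aplp2* at 1.34. *Vcan*, the versican gene and the only hyalectan substrate that passed, was at 256 and 62.3 CPM, giving a log2 ratio of 2.04 (2.01 to 2.07).

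Of the 3 procollagen N-propeptidases, which trim fibrillar procollagens, 2 passed the filter and were higher in PC5. Beside these and the genes of procollagen cleavage below, 20.3% of all genes past the filter were higher in PC5 and 18.5% in PC20. *Adamts14* was at 29.1 and 7.205 CPM, giving a log2 ratio of 2.01 (1.93 to 2.10), and *Adamts2* at 8.00 and 2.84 CPM, giving a log2 ratio of 1.496 (1.356 to 1.637). The third of them, *Adamts3*, which processes the lymphatic growth factor VEGFC, was below the filter and went the other way with 1 and 14 UMIs, giving a log2 ratio of -4.03 (-9.43 to -1.31). On the other side of the procollagen molecule the C-propeptidase *Bmp1* was at 130 and 9.35 CPM, giving a log2 ratio of 3.80 (3.73 to 3.87), and its relative *Tll1* at 2.26 and 0.235 CPM, giving a log2 ratio of 3.26 (2.82 to 3.74). The enhancers of that cleavage went the other way. *Pcolce* was at 50.01 and 136 CPM, giving a log2 ratio of -1.45 (-1.48 to -1.41), and *Pcolce2* at 0.453 and 7.34 CPM, giving a log2 ratio of -4.02 (-4.32 to -3.73).

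Of the other ADAMTS genes, 4 passed and all 4 were higher in PC5, beside 20.3% of all genes past the filter. *Adamts10*, which binds fibrillin microfibrils, was at 14.8 and 2.65 CPM, giving a log2 ratio of 2.48 (2.35 to 2.62). Its close relative *Adamts6* was at 7.87 and 0.623 CPM, giving a log2 ratio of 3.66 (3.39 to 3.94). *Adamts7* and *Adamts12*, which cleave cartilage oligomeric matrix protein, had log2 ratios of 4.58 (4.18 to 5.02) and 1.75 (1.54 to 1.96), from 6.27 and 0.262 CPM and from 4.30 and 1.28 CPM. *Adamts17*, another microfibril-associated member, was below the filter with 5 UMIs in PC5 and 73 in PC20, giving a log2 ratio of -4.09 (-5.76 to -2.80).

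Of the 7 membrane ADAMs that passed, *Adam9* was seen in 79.2% of thinned PC5 and 55.8% of thinned PC20 cells, and the others in 12.6% to 86.7% and 3.80% to 25.4%. *Adam10* (ENSMUSG00000054693), the sheddase of Notch receptors and cadherins, was at 237 CPM (235 to 239) in PC5 against 28.3 CPM (27.6 to 29.1) in PC20, giving a log2 ratio of 3.062 (3.022 to 3.103). *Adam17* (ENSMUSG00000052593), the sheddase of tumour necrosis factor and of several ligands of the epidermal growth factor receptor, was at 40.7 CPM (39.9 to 41.6) and 18.5 CPM (17.9 to 19.1), giving a log2 ratio of 1.14 (1.08 to 1.20). *Adam9* (ENSMUSG00000031555) was at 161 CPM (159 to 163) and 82.8 CPM (81.5 to 84.1), giving a log2 ratio of 0.96 (0.93 to 0.99). *Adam10* was thus above *Adam9* in PC5 and below it in PC20, where *Adam9* over *Adam10* was 2.92 against 0.680 in PC5. *Adam9* was also the only catalytic ADAM that passed without reaching a log2 ratio of 1. *Adam19*, known from heart valve development, was at 69.0 and 4.02 CPM, the highest log2 ratio of the ADAMs at 4.10 (4.00 to 4.21). *Adam12*, an ADAM of muscle and mesenchyme, was at 70.3 and 15.5 CPM, giving a log2 ratio of 2.18 (2.12 to 2.24), and *Adam15* at 55.3 and 25.5 CPM, giving a log2 ratio of 1.12 (1.07 to 1.17). *Adam22*, which lacks protease activity and binds the LGI proteins at synapses, was at 12.8 and 21.4 CPM, giving a log2 ratio of -0.75 (-0.82 to -0.68).

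Among 9 partners of ADAM10 and ADAM17, 7 passed, and the split was 5 higher in PC5 to 2 higher in PC20. Over all genes past the filter 20.3% were higher in PC5 and 18.5% in PC20. The inactive rhomboids carry ADAM17 to the cell surface. *Rhbdf1* was at 16.99 and 6.76 CPM, giving a log2 ratio of 1.33 (1.24 to 1.42), whereas *Rhbdf2* was at 0.242 and 7.69 CPM, giving a log2 ratio of -4.99 (-5.41 to -4.60). Tetraspanins of the C8 group bind ADAM10. *Tspan5* was at 87.4 and 30.8 CPM, giving a log2 ratio of 1.51 (1.46 to 1.55), while *Tspan15* was at 0.507 and 25.0 CPM, giving a log2 ratio of -5.63 (-5.91 to -5.36). Single genes of each partner family were thus higher in PC20 while *Adam10* and *Adam17* were lower.

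The 48 genes below the filter were accounted for as follows. Of these, 14 had no UMI in either library, 10 had UMIs in PC5 only and 4 in PC20 only. The highest level among them was 1.40 CPM, for *Mmp15* in PC5, and all together they held 1770 UMIs in PC5 and 562 in PC20. None of the 21 testis-type and other ADAMs, those on no other list, passed, and their summed level was 1.21 and 0.874 CPM. The genes nearest the filter on the inside were *Mmp28* and *Adamts9*, and on the outside *Mmp15* and *Adam8*, a leukocyte ADAM at 1.17 and 0.408 CPM.

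The plasminogen system, which activates several pro-MMPs, had 9 of 13 genes past the filter, and *Plaur* alone was higher in PC20, against 4 genes in PC5. Beside this list and the next lists, 20.3% of all genes past the filter were higher in PC5 and 18.5% in PC20. The urokinase gene *Plau* was at 22.3 and 0.518 CPM, giving a log2 ratio of 5.43 (5.14 to 5.73), while its receptor *Plaur* was at 13.1 and 41.3 CPM, giving a log2 ratio of -1.66 (-1.72 to -1.59). The highest log2 ratio of the list was that of the urokinase inhibitor *Serpinb2*, 8.51 (8.12 to 8.93), from 99.2 and 0.272 CPM. Of 13 genes that regulate or anchor MMPs and TIMPs, 10 passed, 6 were higher in PC5 and 1 in PC20. *Reck*, a membrane-anchored MMP inhibitor needed for blood vessel growth in the brain, was at 9.88 and 1.83 CPM, giving a log2 ratio of 2.43 (2.27 to 2.60). *Thbs2*, which clears MMP2 through the receptor LRP1, had the largest log2 ratio at 8.33 (7.95 to 8.74). *Lrp1* itself was at 336 and 110 CPM, giving a log2 ratio of 1.62 (1.59 to 1.64). The gene higher in PC20 was *Bsg*, also called EMMPRIN for its induction of MMPs in neighbouring cells. It was at 378 and 1945 CPM, giving a log2 ratio of -2.36 (-2.38 to -2.35). Of 7 proprotein convertases, which cut MMP and ADAM propeptides, 4 passed, and *Furin* and *Pcsk6* were higher in PC5 with log2 ratios of 1.95 (1.89 to 2.01) and 2.75 (2.50 to 3.00).

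Within a library the genes differed in how evenly cells expressed them. In thinned PC5 cells the variance over the mean was 3.58 for *Timp2*, 14.9 for *Timp3*, 6.06 for *Timp1* and 10.8 for *Mmp3*, and at most 2.56 for the 26 other genes. At the same relative spread among cells this ratio rises with the mean count. The mean was 12.8 UMIs for *Timp3* and 5.53 for *Timp1*, but 0.0557 for *Mmp10*, whose ratio was 2.29. The ratio therefore does not rank genes of unlike means by evenness, in PC5 or in PC20. The 10% of cells with most *Mmp3* held 91.8% of its UMIs, with up to 62 in a cell, although only 13.2% of thinned PC5 cells had any. Ranked in the same way, the top 10% of cells held 21.3% of *Timp2* and 35.0% of *Timp3* UMIs. This share rises as the mean count falls, and *Mmp3* had a mean of 0.390 UMIs per cell, against 12.6 and 12.8 for those genes. With means of 0.402 and 0.430, nearer to that of *Mmp3*, *Adamts5* and *Adam17* had shares of 62.6% and 44.5%. In PC20 the variance over the mean was highest for *Timp3* at 4.23, followed by *Adamts5* at 2.12. Over thinned PC5 cells *Timp2* and *Timp3* had a Pearson's *r* of 0.35 and a Spearman's rho of 0.35, the largest of 190 pairs of 20 genes. In PC20 the same pair had 0.036 and 0.031, and the largest Pearson's *r* of 66 pairs of 12 genes was 0.15, for *Timp3* with *Adamts5*. Counting error lowers the coefficients of genes with few UMIs, and *Timp2* and *Timp3* had the highest mean counts in PC5. These coefficients describe cells of the same library, which share its depth and its composition.

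Cells were also split by whether they had a UMI of *Mki67* or *Top2a*, genes of dividing cells. This held for 35.6% of thinned PC5 and 57.6% of thinned PC20 cells. In PC5, 19 of the 30 genes were lower in cells with such a UMI, by an interval that left out 0, and *Adam12* and *Adamts10* were higher. Of all 11761 genes past the filter 19.1% were lower and 34.3% higher by the same rule, which depends on the UMIs behind each gene. The rule also takes UMIs as independent, whereas the variance over the mean in PC5 was 14.9 for *Timp3* and 10.8 for *Mmp3*. For genes so uneven among cells the intervals are too narrow. Some limits also lay close to 0, as for *Adam10* with an upper limit of -0.0004. The count of 19 is therefore a description only. The difference was greatest for *Mmp3*, at 22.5 CPM with and 45.3 CPM without, a log2 difference of -1.01 (-1.13 to -0.89). *Mmp10* followed at -0.81 (-1.12 to -0.51), *Adamts15* at -0.67 (-0.81 to -0.52), *Adamts1* at -0.55 (-0.60 to -0.49) and *Timp3* at -0.52 (-0.54 to -0.50). *Timp1* at 0.02 (-0.01 to 0.04) and *Mmp14* at -0.02 (-0.08 to 0.04) had intervals that held 0. In PC20, 5 genes were lower and 3 higher in cells with such a UMI, beside 18.8% and 23.3% of all genes, so that the share lower was close to that of all genes. *Mmp2* at -0.62 (-0.91 to -0.33) and *Adam12* at 0.44 (0.22 to 0.67) were the farthest from 0 of these 8 on each side. The passages were also compared in unthinned cells without a *Mki67* or *Top2a* UMI, which were not chosen at equal depth. Among these, 22 of 30 genes were higher in PC5 and 3 in PC20, beside 20.9% and 18.7% of all genes. The median log2 ratio was 2.33.

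**Figure D4:**
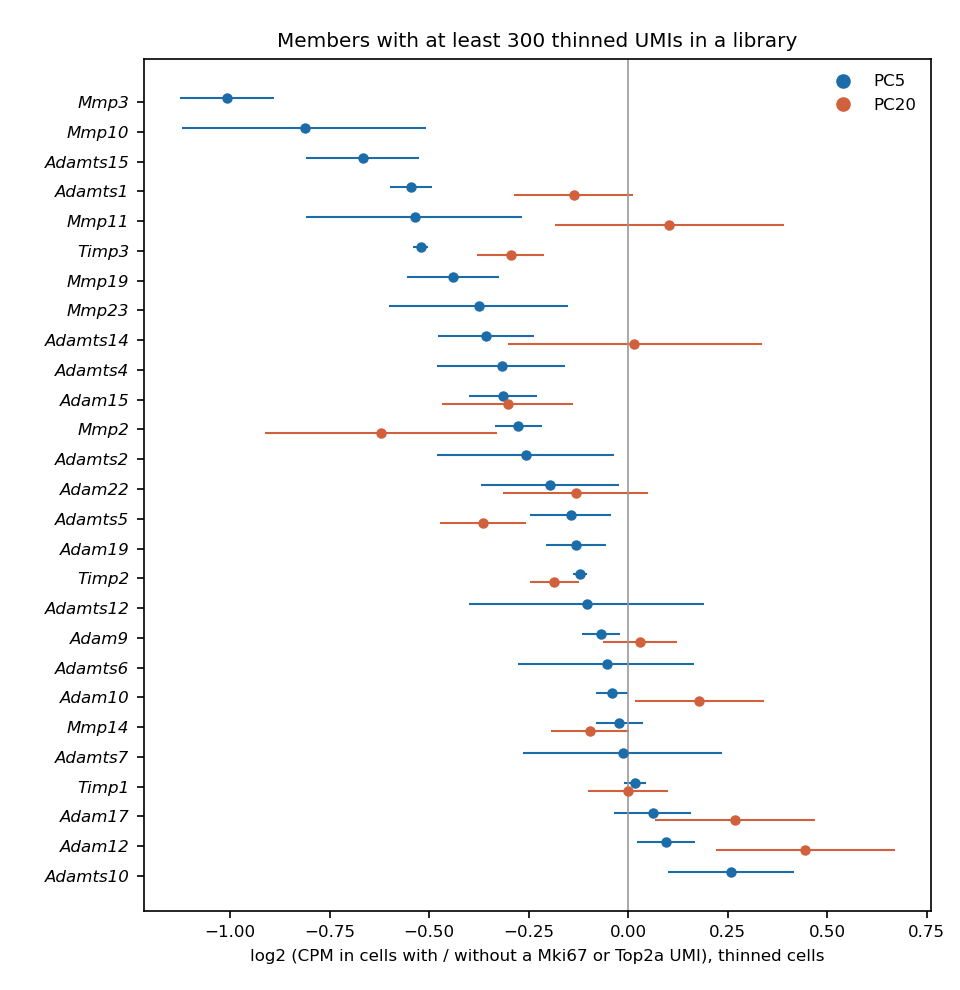
Log2 of the level in cells with over that in cells without a *Mki67* or *Top2a* UMI, in thinned cells, for the 27 genes with at least 300 thinned UMIs in a library; PC5 in blue, PC20 in orange, bars are 95% counting intervals. *Mmp3* and *Mmp10* are farthest to the left in PC5, and *Adam12* is to the right of 0 in both libraries.

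Cells were clustered in each library without the 78 genes, which gave 11 PC5 and 13 PC20 clusters of at least 50 cells, named here by number only. Clusters PC5-7, PC5-11 and PC20-12 had median depths of 5677, 7477 and 9594 UMIs, and PC5-3 and PC20-12 medians of 0.370% and 0.339% mitochondrial UMIs, and these 4 were set apart. They held 1723 of 9950 PC5 and 109 of 4749 PC20 cells. Over the other 8 PC5 and 12 PC20 clusters, 21 genes were higher in every PC5 cluster than in any PC20 cluster, *Adamts9* was higher in every PC20 cluster, and 8 overlapped. Of all 11761 genes past the filter 21.9% were higher in every PC5 and 17.5% in every PC20 cluster. With the 4 clusters included these counts were 11, 0 and 19, beside 10.3% and 7.16% of all genes without overlap in each direction. PC5-11, with 155 cells, was then the highest cluster for 20 genes, and the share of all genes highest there was not computed. Without the cells set apart, 22 genes still had a log2 ratio above 1 and 2 below -1, with 21.0% and 17.6% of all genes so called.

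*Mmp3* was concentrated in cluster PC5-2, led by *Trf*, *Il33*, *Dcn* and *Aldh1a2*. It was at 166 CPM (160 to 173) there, with 45.8 CPM (43.0 to 48.7) in the next, PC5-10, and 9.42 CPM (8.28 to 10.7) in the lowest. PC5-2 was the highest of the 8 clusters for 14 of the 30 genes, among them *Adamts15* at 60.5 CPM, *Adamts1* at 278, *Mmp2* at 198, *Mmp14* at 170 and *Adam10* at 322 CPM. *Timp1* went against these, being lowest there at 247 CPM (239 to 254). It was highest in PC5-5, led by *Mgp*, at 867 CPM (855 to 880), together with *Timp3* at 2050 CPM and *Adamts5* at 73.8 CPM. *Timp2* ran from 1001 to 1483 CPM over these 8 clusters and from 475 to 1934 CPM over all 11. The share of all genes that were highest in PC5-2 was not computed, so the count of 14 has no background beside it.

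In PC20 a single cluster stood apart for *Timp3*. PC20-9, 254 cells with *Bgn*, *Ckb* and *Cdo1* among its leading genes, had 440 CPM (428 to 452), against 94.9 CPM in the next. It was also the highest of 12 for *Mmp2* at 31.5 CPM (28.4 to 34.9), with 8.28 CPM in the next, and for *Mmp19* at 6.69 CPM, *Adamts4* at 2.37 CPM, *Adamts9* at 7.54 CPM and *Adamts5* at 110 CPM. The next cluster had 4.21 CPM for *Mmp19*, 0.584 for *Adamts4*, 6.09 for *Adamts9* and 106 for *Adamts5*. For *Mmp19*, *Adamts9* and *Adamts5* the intervals of PC20-9 and the next cluster overlapped. PC20-9 remained below the lowest of the 8 PC5 clusters for *Timp3*, at 582 CPM, and for *Mmp2*, at 88.2 CPM. PC20-5, led by *Ogn* and *Lcn2*, was highest for 14 genes, among them *Timp2* at 336 CPM, *Adamts1* at 73.8 CPM and *Adam9* at 137 CPM. The share of all genes highest in PC20-5 was not computed either. The clusters of a library come from the same cells as these values and are described without a test.

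**Figure D5:**
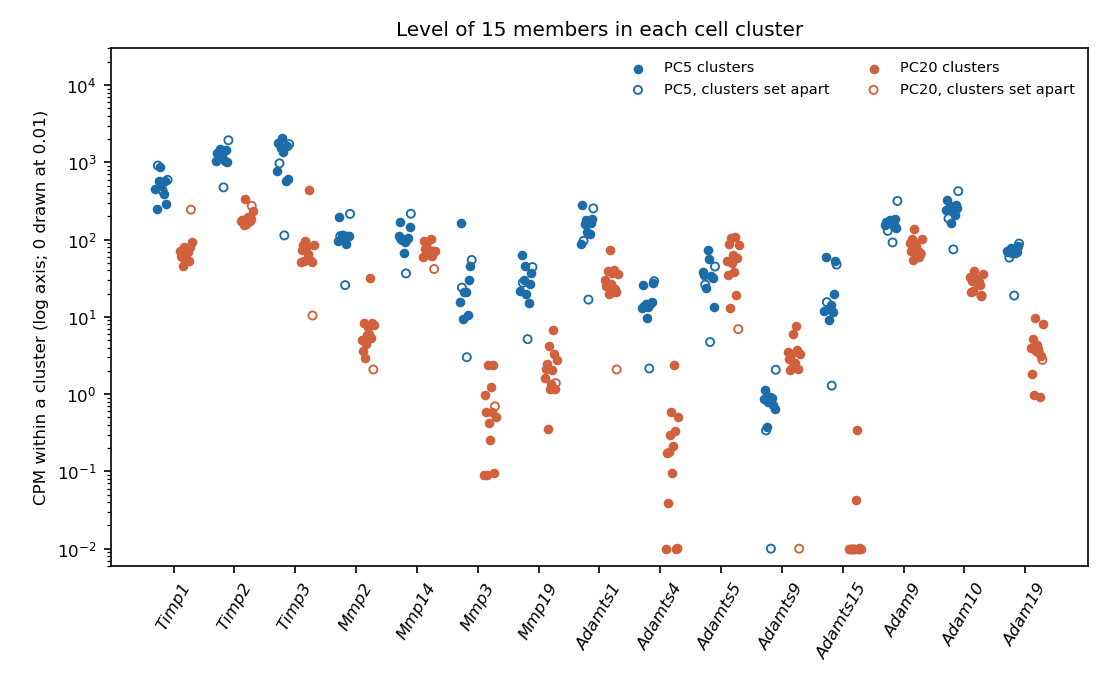
Level of 15 genes in each cluster, on a log axis of CPM with 0 drawn at 0.01; PC5 clusters in blue, PC20 clusters in orange, open points are the clusters set apart by depth or mitochondrial share. The single high orange point for *Timp3* and *Mmp2* is PC20-9 and the high blue point for *Mmp3* is PC5-2; filled points of the libraries overlap for *Mmp14* and *Adamts5*.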

How the data were processed

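The 2 single-cell libraries, PC5 and PC20, were grouped by the passage that the labels give. For each the authors deposited a filtered matrix of raw UMI counts from 10x 3′ chemistry, made with Cell Ranger 5.0 on mm10 by the submitters' processing notes, with the annotation release not given in the sources used here. Cells from fresh tissue were not used here.

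The study's own cell filter was applied, more than 1000 genes and less than 20% of UMIs from mitochondria. It left 223054273 PC5 and 191122251 PC20 UMIs. Doublets were not called or removed. CPM was computed from summed UMIs, with exact Poisson intervals for CPM, conditional binomial intervals for log2 ratios and exact binomial ones for shares, at the 95% level and for counting error only. Where a library held 0 UMIs, 3 UMIs were put in for it, giving a bound that leaves out counting error. No ratio was computed for genes at 3 UMIs or fewer in both. A gene counted as higher had a log2 ratio above 1 in size and a mean of at least 1 CPM. The 30 genes past that filter are all named with values, up to 6 others for their role, and up to 4 of each further list by level or ratio. Beyond that rule, further genes below the filter, those of the *Mmp* run among them, and neighbouring genes were named after their values were seen. The members and lists were chosen with earlier results of these data known. For the split by *Mki67* or *Top2a* and for per-cell shares, cells were thinned at random to 10500 UMIs. The comparison of passages among cells without such a UMI used unthinned cells. Clusters came from scanpy 1.11.5 with 2000 variable genes, 15 components, 20 neighbours and resolution 0.8, without the member genes. Clusters with a median depth under 50% of the library's or a median under 0.5% mitochondrial UMIs were set apart after the data were examined. Positions are from GENCODE M21 on GRCm38, which held all 78 identifiers, and promoter sequences from RefSeq on GRCm38.p6. The calculation was tested on simulated data. Alternatives were other cell filters, scalings and minimum levels.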

Additional observations from a re-analysis of the deposited data

How the results depend on the processing

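The count of genes higher in PC5 stayed at 22 of 30 under the other cell filters, thinning, centring and means over cells, and was 24 of 32 with library sizes that left out mitochondrial and ribosomal protein genes, and none of the 30 changed the sign of its log2 ratio under the 8 settings tried on single genes. Genes of other lists were not run through these settings. Only *Mmp16* crossed 1 in size, so that the count higher in PC20 was 3 in cells without a *Mki67* or *Top2a* UMI and for means over cells. The median log2 ratio of 2.33 moved to 2.35 under a stricter filter on cells (2000 genes, 10% mitochondrial), 2.42 in thinned cells, 2.35 with those library sizes, 2.31 after centring on the median gene, 2.40 for means over cells and 2.36 without the clusters set apart. The minimum level mattered more. At a mean of at least 5 CPM, 17 of 22 genes were higher in PC5 and 0 in PC20 (all genes 17.9% and 17.3%). With 4 or more UMIs in a library, 32 of 56 were higher in PC5 and 5 in PC20 (27.4% and 19.8%), with a median of 1.51. Among genes seen in 10% or more of a library's cells, 20 of 27 were higher in PC5 and 1 in PC20 (17.9% and 19.1%), with a median of 2.48. With at least 1 CPM in both libraries, 15 of 21 were higher in PC5 and 0 in PC20 (15.8% and 16.9%), with a median of 2.01. This last setting and the one without the clusters set apart were chosen after seeing the data. These changes follow from which genes were counted. The largest single move was *Adamts15*, from 9.63 to 8.46 in thinned cells, where PC20 held 0 UMIs and 3 UMIs were put in. No paired analysis was possible because each passage has 1 library. Depth limits genes under about 1 CPM, and the spread between cultures is unknown.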

Other observations

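Other enzymes that degrade the matrix did not move as a block. Of 14 such genes 9 passed the filter, with 3 higher in PC5, 3 in PC20 and 3 between. Over all genes past the filter 20.3% were higher in PC5 and 18.5% in PC20. *Cemip*, a hyaluronan-degrading factor, was at 123 and 0.152 CPM, giving a log2 ratio of 9.66 (9.14 to 10.24), and the collagenolytic cathepsin gene *Ctsk* at 17.4 and 0.110 CPM, giving a log2 ratio of 7.31 (6.70 to 8.00). *Hpse*, the heparanase that cuts heparan sulfate, was at 3.40 and 40.9 CPM, giving a log2 ratio of -3.59 (-3.70 to -3.48), and the hyaluronidase gene *Hyal1* at 1.79 and 8.18 CPM, giving a log2 ratio of -2.19 (-2.35 to -2.03). Of 7 ADAMTS-like genes, which resemble ADAMTS proteins but lack the protease domain, 3 passed. *Adamtsl3* was at 0.731 and 14.4 CPM, giving a log2 ratio of -4.30 (-4.53 to -4.07), and *Adamtsl4* and *Adamtsl5* lay within 1 of 0.

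All 15 listed substrates of ADAM sheddases passed the filter, with 5 higher in PC5, 4 higher in PC20 and 6 between. Over all genes past the filter 20.3% were higher in PC5 and 18.5% in PC20. *Notch1*, *Notch2*, *Notch3*, *Cdh2* and *Il6ra* were the 5 higher in PC5, with log2 ratios of 2.15, 2.36, 2.80, 2.19 and 1.84. The 4 higher in PC20 were growth factors of the epidermal growth factor family and a chemokine. *Nrg1* was at 0.126 and 4.02 CPM, giving a log2 ratio of -5.00 (-5.60 to -4.46), and *Tgfa* at 0.968 and 9.28 CPM, giving a log2 ratio of -3.26 (-3.47 to -3.06). *Btc* had a log2 ratio of -1.84 (-2.03 to -1.66) and *Cx3cl1* of -1.90 (-2.02 to -1.78).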
